A study of Mus musculus with 46 samples.

Results

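B16F10 cells, a pigmented mouse melanoma line, that carried a guide RNA against Arid1a (sgArid1a) and had spent 72 h with a receptor-blocking antibody (anti-IFNAR, which targets the receptor for type I interferons) were set against B16F10 cells with the control guide sgScramble and no treatment. The comparison asks which of the changes that accompany the Arid1a guide are still present when the receptor is blocked. The libraries were chosen by their labels and were 4 of the 46 in the series, 2 per group. The table that holds them lists 24537 genes, and 11686 of them, those averaging 4 or more on the log2 scale over its 6 libraries, were tested. Its other 2 libraries came from sgArid1a cells with no treatment. A second table, normalized separately, held 2 libraries each of sgArid1a cells with ruxolitinib (an inhibitor of the kinases JAK1 and JAK2), sgArid1a cells with DMSO and sgScramble cells with DMSO, all taken at 72 h. No group received the antibody together with sgScramble or received a control antibody. Against sgScramble, the guide and the antibody therefore cannot be told apart, whereas antibody-treated and untreated sgArid1a cells carry the same guide. The labels give no time for the untreated cultures and do not say whether the guide populations were clones or whether the 2 libraries of a group came from separate cultures. The spread behind every p-value here is thus that between these samples, and it may be technical.

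Arid1a encodes the DNA-binding subunit of a SWI/SNF chromatin remodelling complex. Type I interferons bind the receptor pair Ifnar1 and Ifnar2, whose kinases Jak1 and Tyk2 activate STAT factors. Together with Irf9 these form a complex that binds interferon-stimulated response elements and induces antiviral genes. Ruxolitinib acts below the receptor and on other JAK-dependent cytokine signals too. In the integrated stress response, kinases phosphorylate the translation factor eIF2alpha, which lowers general translation and favours synthesis of the transcription factor Atf4, an activator of genes for amino acid supply and tRNA charging. The unfolded protein response raises chaperones of the endoplasmic reticulum (ER), and low membrane sterol activates SREBP factors, which induce cholesterol and fatty acid enzymes.

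Promoter windows of 6 genes are shown, 1 or 2 from each group of genes that the comparison turns on, so that the regulatory letters can be seen beside the values that follow. Only genes and windows with a match were shown, so the matches printed here were fixed by that choice. Among tested members with a window, most in each list searched had no match. Each holds the 250 bases before the gene start from RefSeq on GRCm38.p6, printed on the gene's own strand. Capitals mark a match to the motif of the gene's group on either strand, which is a description of letters and not a shown binding site. The stress genes Nupr1 (chr7:126625471-126625720, minus strand) and Atf3 (chr1:191183334-191183583, minus strand) were searched for the CEBP-ATF response element TGATGNAA. The ER chaperone Hspa5 (chr2:34771840-34772089, plus strand) was searched for the ER stress element, CCAAT followed by any 9 bases and CCACG, and the sterol enzyme Hmgcs1 (chr13:119690101-119690350, plus strand) for the sterol regulatory element CACCCCAC. The antiviral genes Ifit1 (chr19:34640639-34640888, plus strand) and Oas1a (chr5:120907526-120907775, minus strand) were searched for the interferon-stimulated response element, GAAA followed by any 2 bases and GAAA, and in Oas1a the 2 matches overlap.
Nupr1: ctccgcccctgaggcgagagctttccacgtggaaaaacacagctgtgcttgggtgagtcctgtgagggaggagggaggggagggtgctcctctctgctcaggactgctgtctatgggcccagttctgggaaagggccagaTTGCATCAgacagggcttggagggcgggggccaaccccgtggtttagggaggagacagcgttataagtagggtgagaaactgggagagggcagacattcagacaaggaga
Atf3: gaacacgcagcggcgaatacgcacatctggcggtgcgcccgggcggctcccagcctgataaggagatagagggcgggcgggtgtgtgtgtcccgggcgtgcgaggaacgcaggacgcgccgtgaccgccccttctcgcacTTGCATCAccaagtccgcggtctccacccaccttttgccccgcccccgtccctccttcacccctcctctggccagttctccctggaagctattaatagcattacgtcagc
Hspa5: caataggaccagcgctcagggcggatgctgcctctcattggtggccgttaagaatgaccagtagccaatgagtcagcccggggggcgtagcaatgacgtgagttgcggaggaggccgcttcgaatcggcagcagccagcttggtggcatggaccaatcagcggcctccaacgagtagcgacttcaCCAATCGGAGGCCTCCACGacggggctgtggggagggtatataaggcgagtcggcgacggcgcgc
Hmgcs1: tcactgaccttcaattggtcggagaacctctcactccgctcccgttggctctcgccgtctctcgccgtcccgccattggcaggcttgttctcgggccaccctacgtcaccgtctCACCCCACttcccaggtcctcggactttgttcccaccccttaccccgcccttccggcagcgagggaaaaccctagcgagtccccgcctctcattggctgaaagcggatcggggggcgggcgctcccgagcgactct
Ifit1: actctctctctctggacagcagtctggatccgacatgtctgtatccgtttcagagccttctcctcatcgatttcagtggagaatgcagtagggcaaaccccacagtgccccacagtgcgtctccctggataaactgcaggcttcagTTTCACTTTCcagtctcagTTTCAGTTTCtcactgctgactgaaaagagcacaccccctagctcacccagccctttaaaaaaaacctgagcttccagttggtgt
Oas1a: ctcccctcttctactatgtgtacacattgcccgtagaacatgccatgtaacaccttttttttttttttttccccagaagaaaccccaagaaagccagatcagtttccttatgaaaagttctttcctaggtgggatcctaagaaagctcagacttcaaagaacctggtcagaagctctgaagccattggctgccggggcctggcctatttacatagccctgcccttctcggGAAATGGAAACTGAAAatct

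Among tested members with a window, the interferon element was found in 14 of 38 interferon-stimulated genes (36.8%), against 2.98% of 32851 RefSeq promoter windows. The ER stress element was found in 8 of 18 ER chaperone genes (44.4%), against 0.113% of all windows. The CEBP-ATF element was found in 4 of 14 integrated stress response genes (28.6%) and in 4 of 20 amino acid genes (20.0%), against 3.45%. The sterol element was found in 2 of 17 cholesterol genes (11.8%), against 2.58%. For pigment cell genes, the M-box TCATGTG was found in 6 of 15 (40.0%), against 3.25%. The list shares count genes, each as a match if any of its windows matched, whereas the shares over all windows count single windows. A gene with several windows could match more readily, so the 2 kinds of share are not like for like.

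Depth was 21.2 and 21.6 M reads with anti-IFNAR, 20.5 and 20.1 in untreated sgArid1a cells and 8.68 and 22.8 in sgScramble cells, so sgScramble replicate 1 was the shallowest library. The deposited log2 values draw low values together. Fold changes on this scale are smaller than those of the authors' deposited comparisons, which for Nupr1 gave a log2 fold change of -4.93 where the values below give -2.33. Few leukocyte, endothelial and keratinocyte markers passed the filter: of 15 macrophage, 15 T and NK cell, 10 endothelial and 10 keratinocyte markers, 1, 1, 0 and 1 did. Of 12 fibroblast markers 5 passed, and they are given with the matrix genes, since the 2 lists share members such as Fbln1. The leukocyte gene Ptprc and the T cell gene Cd3e were listed at 0 in all 6 libraries. The melanin enzyme Tyr lay between 11.51 and 12.16 in all of them.

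The labels were checked first on the targeted gene. Arid1a (NM_001080819, mm10 chr4:133679008-133753611, minus strand) had log2 values of 10.60 and 10.61 with anti-IFNAR, 10.57 and 10.53 in untreated sgArid1a cells and 10.95 and 11.10 in sgScramble cells. All 4 sgArid1a libraries lay below both sgScramble libraries. Arid1a fell by 0.42 ± 0.07 (SE, n = 2 per group, limma adjusted p = 0.0059), a call that was lost when either antibody library was left out. A guide can stop the protein and leave the transcript in place, so the level checks the label only in part. The receptor genes did not pass the test: Ifnar1 was at a log2 difference of 0.02 (adjusted p = 0.88) and Ifnar2 at -0.03 (adjusted p = 0.84).

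With the receptor blocked, 715 genes were higher and 772 lower in sgArid1a than in sgScramble cells at a Benjamini-Hochberg adjusted p under 0.05, which are 6.12% and 6.61% of those tested. Of these, 3 rose and 33 fell by at least 1 on the log2 scale. In untreated sgArid1a cells, set against the same 2 sgScramble libraries, 574 genes were higher (4.91%) and 676 lower (5.78%). Antibody-treated and untreated sgArid1a cells, compared directly, differed in 2 genes (0.0171%), both lower with the antibody. Of the 11686 tested, 150 had an unadjusted p under 0.05 by limma, a share below the 0.05 awaited when no gene differs. The test was thus a cautious one, and few or no calls in this contrast, here and below, do not show that genes were unchanged. That count of 2 was 18 without either sgScramble library, 1 without antibody replicate 1 and 0 without any 1 of the other 3 libraries. The count of 1487 against sgScramble was 355 without antibody replicate 1, 260 without antibody replicate 2, 2234 when sgScramble replicate 1 was left out and 3829 when its replicate 2 was. It was 964 and 967 without untreated sgArid1a replicate 1 and 2, which enter only the estimate of the spread. In bulk RNA, fewer cells of a kind and less RNA per cell cannot be told apart, here and below.

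**Figure D1:**
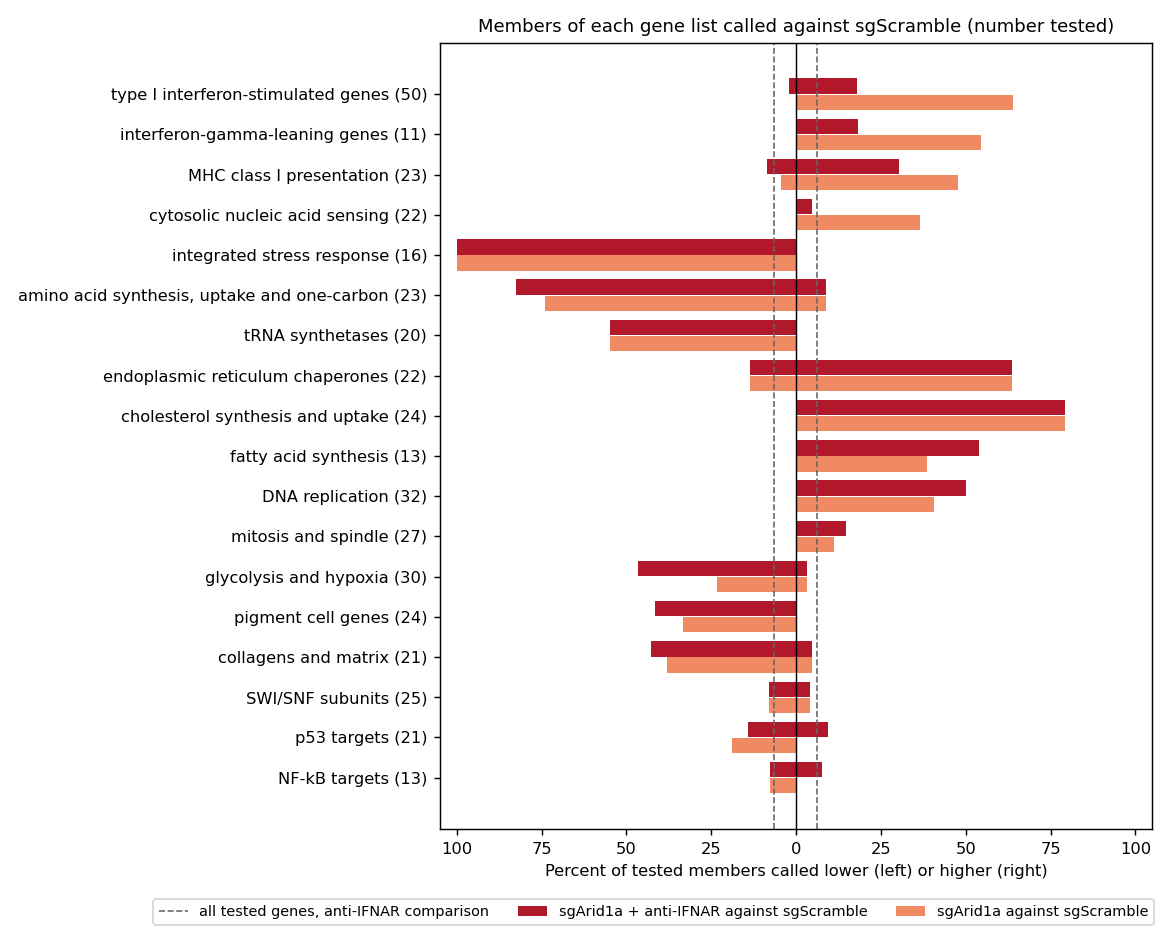
Share of the tested members of each gene list that were called lower (left of 0) or higher (right of 0) against sgScramble, in percent. For each list the upper bar is sgArid1a with anti-IFNAR and the lower bar untreated sgArid1a, both set against the same 2 sgScramble libraries, and dashed lines mark the shares over all tested genes with anti-IFNAR, 6.61% lower and 6.12% higher. All 16 integrated stress response genes were lower in both comparisons, and 9 of 50 interferon-stimulated genes were higher with anti-IFNAR against 32 of 50 without it. The lists were chosen with earlier results of these data known.

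The deepest falls were in genes of the integrated stress response. This list and the others here were chosen with earlier results of these data known, so their counts describe the lists and are not tests. Of 20 listed genes 16 were tested, and all 16 fell with anti-IFNAR, by 0.67 to 2.33, with a median log2 fold change of -1.10 against 0.004 over all tested genes. The other 4 (Stc2, Fgf21, Gdf15 and Soat2) lay below the filter, the first 2 of them listed at 0 in every library. The small stress-induced chromatin protein Nupr1 had 6.40 and 6.41 with anti-IFNAR, 6.51 and 6.49 in untreated sgArid1a cells and 8.69 and 8.78 in sgScramble cells. The pseudokinase Trib3, an Atf4 target that restrains Atf4, had 8.89 and 8.94 with anti-IFNAR, 9.09 and 8.90 in untreated sgArid1a cells and 11.12 and 11.38 in sgScramble cells. In both genes the 4 sgArid1a libraries lay together, far below both sgScramble libraries. With anti-IFNAR, Nupr1 fell by 2.33 ± 0.07 (adjusted p = 4.7e-08) and Trib3 fell by 2.33 ± 0.10 (adjusted p = 1.4e-06).

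The stress transcription factor Ddit3, which promotes cell death, fell by 1.86 ± 0.09 (adjusted p = 1.8e-06), with 9.05 and 8.97 with anti-IFNAR against 10.78 and 10.98 in sgScramble cells. The glutathione-degrading enzyme Chac1 fell by 1.73 ± 0.11, the transcription factor Atf3 fell by 1.36 ± 0.07 and Ppp1r15a, which directs the phosphatase for eIF2alpha, fell by 1.31 ± 0.07. Untreated sgArid1a cells gave -2.24 for Nupr1, -2.25 for Trib3, -1.86 for Ddit3, -1.80 for Chac1 and -1.32 for Atf3 against the same sgScramble libraries. With anti-IFNAR set directly against untreated sgArid1a cells, none of the 16 genes was called by limma, and 0 had an unadjusted p under 0.05. Their differences there lay between -0.14 and 0.10, and that of Nupr1 was -0.10 with a 95% interval from -0.24 to 0.05. The count of 16 was the same without any 1 of the 6 libraries.

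Amino acid genes followed the same direction. Of 23 tested genes for amino acid synthesis, uptake and one-carbon metabolism (24 listed), 19 fell and 2 rose, with a median of -0.76. The mitochondrial alanine aminotransferase Gpt2 had 8.76 and 8.86 with anti-IFNAR, 8.79 and 8.65 in untreated sgArid1a cells and 10.45 and 10.46 in sgScramble cells, and fell by 1.65 ± 0.08 (adjusted p = 1.8e-06). The mitochondrial folate enzyme Aldh1l2 had 9.26 and 9.40 with anti-IFNAR, 9.18 and 9.12 in untreated sgArid1a cells and 11.08 and 10.80 in sgScramble cells, and fell by 1.61 ± 0.10. Neither gene's sgArid1a libraries overlapped its sgScramble libraries. The neutral amino acid transporter Slc1a4 fell by 1.16 ± 0.08, the proline synthesis enzyme Aldh18a1 fell by 1.12 ± 0.08 and Psph, the last enzyme of serine synthesis, fell by 0.95 ± 0.07. The 2 that rose were folate enzymes, Mthfd1 by 0.56 and Shmt1, the cytosolic serine hydroxymethyltransferase, by 0.35. Shmt1 lost its call without either antibody library and Mthfd1 without antibody replicate 2. Untreated sgArid1a cells gave 17 lower and 2 higher, with a median of -0.74.

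Of 20 tRNA synthetase genes, whose enzymes load amino acids onto tRNAs, 11 fell and 0 rose by limma (3 higher at an unadjusted p under 0.05), with a median of -0.42. The seryl enzyme gene Sars fell by 0.85 ± 0.08 (adjusted p = 0.00012), with 12.40 and 12.47 with anti-IFNAR, 12.44 and 12.35 in untreated sgArid1a cells and 13.22 and 13.35 in sgScramble cells. The cysteinyl gene Cars fell by 0.71 ± 0.07 and the alanyl gene Aars by 0.70 ± 0.07 on the same scale. Untreated sgArid1a cells also had 11 lower and 0 higher, and limma called none of the 20 between antibody-treated and untreated sgArid1a cells (0 at an unadjusted p under 0.05), where differences lay between -0.08 and 0.11. The count was 7 without antibody replicate 1.

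**Figure D2:**
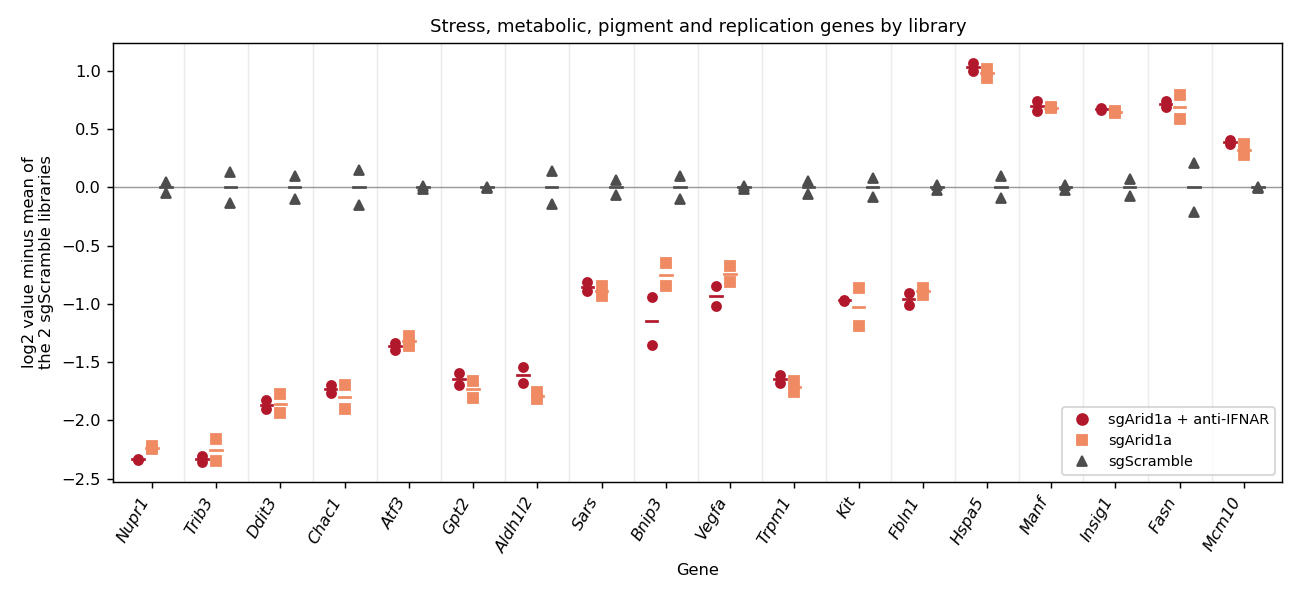
Log2 value of each library minus the mean of the 2 sgScramble libraries (vertical axis, log2) for 18 genes of the stress, amino acid, hypoxia, pigment, matrix, ER chaperone, lipid and replication lists (horizontal axis). Circles are sgArid1a with anti-IFNAR, squares untreated sgArid1a and triangles sgScramble, 2 libraries each, and dashes are group means. For Nupr1 the sgArid1a libraries with and without antibody sit together more than 2 units below sgScramble, and for Hspa5 about 1 unit above it.

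ER chaperone genes moved the other way from the integrated stress response. Of 22 tested (23 listed), 14 rose and 3 fell, with a median of 0.38. Hspa5, the main ER chaperone (BiP), had 14.59 and 14.66 with anti-IFNAR, 14.53 and 14.60 in untreated sgArid1a cells and 13.49 and 13.68 in sgScramble cells. All 4 sgArid1a libraries were above both sgScramble libraries, and Hspa5 rose by 1.04 ± 0.09 (adjusted p = 7.2e-05). The secreted stress protein gene Manf rose by 0.70 ± 0.07, the transcription factor gene Xbp1, a driver of chaperone expression, by 0.61 ± 0.07 and the calcium-binding chaperone gene Calr by 0.62 ± 0.09. The 3 that fell were Ero1l, an oxidase for disulfide formation, by 1.07 ± 0.09, Herpud1, a component of ER-associated degradation, by 0.52 ± 0.07, and Crebrf, a regulator of the Creb3 factor, by 0.44. Untreated sgArid1a cells gave 14 higher and 3 lower. The cytosolic heat shock genes Hspa8 and Hsph1 were among the largest rises, by 0.72 ± 0.08 and 0.80 ± 0.07. The count of 14 was 7 without antibody replicate 1 and 6 without antibody replicate 2, which also ended the calls for Calr and Crebrf.

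Sterol genes rose. Of 24 tested cholesterol synthesis and uptake genes (25 listed), 19 rose and 0 fell with anti-IFNAR, with a median of 0.46. Insig1, whose product is an ER protein that holds SREBP back, had 11.03 and 11.01 with anti-IFNAR, 11.01 and 10.98 in untreated sgArid1a cells and 10.28 and 10.42 in sgScramble cells. Both sgArid1a groups lay above sgScramble without overlap, and with anti-IFNAR Insig1 rose by 0.67 ± 0.07 (adjusted p = 0.00035). Among the enzymes of the pathway, Acat2 rose by 0.69 ± 0.07, Idi1 by 0.68 ± 0.08 and Hmgcs1 by 0.57 ± 0.07. Untreated sgArid1a cells gave 19 higher and 0 lower with a median of 0.45, and limma called none of the 24 between sgArid1a cells with and without antibody (0 at an unadjusted p under 0.05), where differences lay between -0.11 and 0.10. The count of 19 was 8 without antibody replicate 1 and 12 without antibody replicate 2.

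All 13 fatty acid synthesis genes were tested, and 7 rose and 0 fell, with a median of 0.28, against 5 and 0 in untreated sgArid1a cells. The fatty acid synthase gene Fasn rose by 0.72 ± 0.12 (adjusted p = 0.0053), with 13.16 and 13.11 with anti-IFNAR, 13.21 and 13.01 in untreated sgArid1a cells and 12.21 and 12.62 in sgScramble cells. The desaturase genes Scd1 and Fads2 rose by 0.51 ± 0.07 and 0.33 ± 0.07, and the elongase genes Elovl6 and Elovl5 by 0.45 ± 0.08 and 0.28 ± 0.07. The count of 7 was 2 without antibody replicate 1 and 1 without antibody replicate 2, and both settings ended the calls for Fasn, Fads2 and Elovl5. That for Elovl6 was lost without antibody replicate 2. That for Elovl5 was lost also without either untreated sgArid1a library or with a replicate block.

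Pigment cell genes fell in part. Of 24 tested (26 listed), 10 fell and 0 rose with anti-IFNAR by limma (1 higher at an unadjusted p under 0.05), with a median of -0.23, and 8 fell and 0 rose in untreated sgArid1a cells. The ion channel gene Trpm1, marked by expression in melanocytes, had 8.11 and 8.18 with anti-IFNAR, 8.03 and 8.12 in untreated sgArid1a cells and 9.73 and 9.84 in sgScramble cells, and fell by 1.64 ± 0.08 (adjusted p = 1.8e-06). Both sgArid1a groups lay well below sgScramble and overlapped each other. Kit, the receptor for stem cell factor, fell by 0.97 ± 0.10, the melanosome trafficking gene Sytl2 fell by 0.81 ± 0.08, the melanosome transporter gene Oca2 fell by 0.72 ± 0.07 and Tyr fell by 0.55 ± 0.08. The count of 10 was 5 without antibody replicate 1 and 4 without antibody replicate 2, which also ended the call for Tyr.

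Matrix genes fell in 9 of 21 tested (36 listed) with anti-IFNAR and rose in 1, Mmp14, a membrane-bound metalloproteinase, by 0.34. The median was only -0.03, and 8 of the 21 were above 0. Untreated sgArid1a cells gave 8 lower and 1 higher. The secreted matrix protein gene Fbln1 had 10.79 and 10.69 with anti-IFNAR, 10.84 and 10.78 in untreated sgArid1a cells and 11.68 and 11.73 in sgScramble cells, and fell by 0.96 ± 0.07 (adjusted p = 3e-05). The collagen cross-linking gene Loxl2 fell by 0.95 ± 0.12 and the phosphoprotein gene Spp1 fell by 0.80 ± 0.06. The count of 9 was 4 without antibody replicate 1 and 5 without antibody replicate 2, and the Mmp14 call was lost without any library but sgScramble replicate 2 and with a replicate block. Of 12 listed fibroblast markers 5 were tested and 4 fell, among them Fbln1, the collagen gene Col1a2, which fell by 0.29 ± 0.07, and Postn, which fell by 0.31 ± 0.06. Without either antibody library 1 of the 4 was called and the calls for Col1a2 and Postn were lost. The summed level of the 12 markers, as log2, was 11.13 and 11.05 with anti-IFNAR, 11.15 and 11.11 in untreated sgArid1a cells and 11.89 and 11.93 in sgScramble cells. In every library most of that sum was Fbln1, which stands in both lists, so the sum largely repeats that gene. The fibroblast gene Dcn was listed at 0 in all 6 libraries. The part of fibroblasts in the matrix result was not tested.

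Glycolysis and hypoxia genes fell in 14 of 30, all of them tested, and rose in 1, the stress-responsive gene Ndrg1, by 0.34. The median was -0.32. In untreated sgArid1a cells 7 fell and 1 rose, with a median of -0.21. The mitophagy receptor gene Bnip3 had 10.53 and 10.12 with anti-IFNAR, 10.62 and 10.82 in untreated sgArid1a cells and 11.57 and 11.38 in sgScramble cells. The angiogenic factor gene Vegfa had 9.85 and 9.69 with anti-IFNAR, 9.89 and 10.03 in untreated sgArid1a cells and 10.71 and 10.69 in sgScramble cells. In both genes the antibody libraries were the lowest of the 3 groups. Bnip3 fell by 1.15 ± 0.13 (adjusted p = 0.00043) and Vegfa by 0.93 ± 0.08 (adjusted p = 7.5e-05), and the glycolytic kinase gene Pgk1 fell by 0.98 ± 0.11. Set directly against untreated sgArid1a cells, 27 of the 30 genes were below 0 with a median of -0.12, and limma called none, with 3 lower at an unadjusted p under 0.05. The difference for Bnip3 was -0.40 with a 95% interval from -0.68 to -0.11, unadjusted. The count of 14 was 6 without either antibody library and 26 without sgScramble replicate 1, and the Ndrg1 call was lost without either antibody library.

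DNA replication genes rose in 16 of 32, all of them tested, with 0 lower and a median of 0.26, and 13 rose in untreated sgArid1a cells. The rise was weaker in the separately normalized libraries, against sgScramble with DMSO. There, 4 of the 32 rose and 0 fell in sgArid1a cells with DMSO, with a median of 0.087. With ruxolitinib 7 rose and 1 fell, with a median of 0.09. The thymidine kinase gene Tk1 rose by 0.43 ± 0.08 (adjusted p = 0.0059), the replication initiation gene Mcm10 by 0.39 ± 0.07, the helicase subunit gene Mcm6 by 0.37 ± 0.07, the ribonucleotide reductase gene Rrm2 by 0.37 ± 0.07 and the cyclin gene Ccne1 by 0.33 ± 0.07. All 5 lost their calls without either antibody library. The count of 16 was 0 without antibody replicate 1 and 0 without antibody replicate 2, where antibody-treated cells are represented by 1 library, 9 without either untreated sgArid1a library and 10 with a replicate block. Of 27 mitosis genes 4 rose and 0 fell: the checkpoint kinase genes Bub1b, by 0.44 ± 0.07, and Ttk, the mitotic kinase gene Plk1 and the motor gene Kif2c. Bub1b alone of these 4 kept its call with a replicate block, and it lost it without antibody replicate 2. The other 3 were also lost without any 1 of the 4 sgArid1a libraries, and Plk1 without sgScramble replicate 1. With no filter on low values 1 of the 27 was called.

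For interferon-stimulated genes, fewer were called with anti-IFNAR than without it. Of 62 listed genes 50 were tested, and with anti-IFNAR 9 rose and 1 fell against sgScramble, with a median of 0.08. In untreated sgArid1a cells, set against the same 2 sgScramble libraries, 32 rose and 0 fell, with a median of 0.32. Between antibody-treated and untreated sgArid1a cells 47 of the 50 differences were below 0, with a median of -0.17. In 38 of the 50 both antibody libraries lay below both untreated sgArid1a libraries, which held for 15.8% of all tested genes. In that direct contrast limma called 1 of the 50, and 29 of them were lower and 0 higher at an unadjusted p under 0.05, a level that 150 of all 11686 genes reached in either direction. Without the groups overlapping, 24 were higher and 9 lower with anti-IFNAR than in sgScramble cells, where such genes made up 29.2% and 27.5% of all tested.

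The 1 member called in the direct contrast was Ifi27, a small interferon-induced membrane protein gene. It had 9.21 and 9.06 with anti-IFNAR, 10.08 and 10.06 in untreated sgArid1a cells and 9.54 and 9.71 in sgScramble cells. The antibody libraries were below both other groups, which did not overlap each other. Ifi27 fell by 0.94 (95% interval -1.12 to -0.75, adjusted p = 0.0046) against untreated sgArid1a cells and by 0.49 ± 0.08 (adjusted p = 0.0045) against sgScramble cells. The other gene called in the direct contrast was Irf9, the DNA-binding part of the interferon-activated factor, which stands in the signalling list. It had 7.41 and 7.47 with anti-IFNAR, 8.06 and 8.02 in untreated sgArid1a cells and 7.58 and 7.62 in sgScramble cells, and fell by 0.60 (95% interval -0.75 to -0.45, adjusted p = 0.023) against untreated sgArid1a cells. Against sgScramble Irf9 was at -0.16 (adjusted p = 0.15). The Irf9 call was lost without any 1 of the 4 sgArid1a libraries, and the Ifi27 call against untreated sgArid1a without either untreated sgArid1a library or without antibody replicate 2, which ended its call against sgScramble as well.

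Of the 32 interferon-stimulated genes called higher in untreated sgArid1a cells, 22 were not called with anti-IFNAR. Their differences from sgScramble with anti-IFNAR lay between -0.06 and 0.34, with a median of 0.07. Many of the 22 still had both antibody libraries above both sgScramble libraries, among them Isg15, Bst2, Parp9, Eif2ak2 and Gbp3. Rtp4 had both below. Some of the others, shown here, lay near the sgScramble level with anti-IFNAR. The RNA sensor gene Ddx58 (RIG-I) had 7.59 and 7.69 with anti-IFNAR, 8.05 and 8.11 in untreated sgArid1a cells and 7.64 and 7.65 in sgScramble cells. The deconjugating enzyme gene Usp18, which removes Isg15 from proteins and restrains receptor signalling, had 5.91 and 5.85 with anti-IFNAR, 6.25 and 6.35 in untreated sgArid1a cells and 6.01 and 5.82 in sgScramble cells. The RNA-activated synthetase gene Oas1a had 6.76 and 6.61 with anti-IFNAR, 7.12 and 7.08 in untreated sgArid1a cells and 6.80 and 6.69 in sgScramble cells. In all 3 genes the antibody and sgScramble libraries overlapped, and both untreated sgArid1a libraries were above them. Set directly against untreated sgArid1a cells the differences were -0.44 for Ddx58 (adjusted p = 0.15), -0.42 for Usp18 (adjusted p = 0.16) and -0.42 for Oas1a (adjusted p = 0.18), which did not pass. These 3 and Rtp4, a chaperone of receptors that was at -0.41 (adjusted p = 0.065), passed without either sgScramble library. Reads of Oas1a and its near copy Oas1g, and of Ifit3 and Ifit3b, may have been shared between them.

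The 9 members that rose against sgScramble with the receptor blocked were Ifit1, Ifit3, Rsad2, Cmpk2, Ifi35, Ifih1, Parp14, Dtx3l and Slfn9. Set directly against untreated sgArid1a cells, they lay between -0.30 and 0.04, with a median of -0.16. The 22 not called with anti-IFNAR lay between -0.44 and -0.08 there, with a median of -0.24, so the 2 ranges overlap. In the authors' deposited comparison of these 2 groups, 1 of the 9 (Ifi35) and 10 of the 22 were lower, against 0.139% of all genes. The RNA-cap-binding gene Ifit1 had 8.29 and 8.18 with anti-IFNAR, 8.38 and 8.54 in untreated sgArid1a cells and 7.83 and 7.71 in sgScramble cells. The antiviral radical-SAM enzyme gene Rsad2 (viperin) had 9.67 and 9.55 with anti-IFNAR, 9.79 and 9.83 in untreated sgArid1a cells and 8.99 and 9.27 in sgScramble cells. The ADP-ribosyltransferase gene Parp14 had 7.97 and 7.94 with anti-IFNAR, 8.15 and 8.05 in untreated sgArid1a cells and 7.49 and 7.49 in sgScramble cells. For each of the 3 genes the antibody libraries stood between the other groups, with no overlap. Ifit1 rose by 0.46 ± 0.08 (adjusted p = 0.0063), Rsad2 by 0.48 ± 0.09 (adjusted p = 0.0098) and Parp14 by 0.46 ± 0.07 (adjusted p = 0.0026). Untreated sgArid1a cells gave 0.69, 0.68 and 0.61 for Ifit1, Rsad2 and Parp14. The ubiquitin ligase gene Dtx3l had 8.64 and 8.69 with anti-IFNAR, 8.63 and 8.62 in untreated sgArid1a cells and 8.34 and 8.27 in sgScramble cells, and was the 1 member of the 50 with both antibody libraries above both untreated sgArid1a libraries. Without antibody replicate 1 or replicate 2 the count was 2 rather than 9, and without sgScramble replicate 2 it was 15. Rsad2, Ifit3, Cmpk2, Dtx3l, Ifi35 and Ifih1 lost their calls without either antibody library, Ifit1 without antibody replicate 1 and Slfn9 without antibody replicate 2. Ifi35 and Ifih1 also lost theirs without either untreated sgArid1a library or with a replicate block, and Ifi35 without sgScramble replicate 1.

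**Figure D3:**
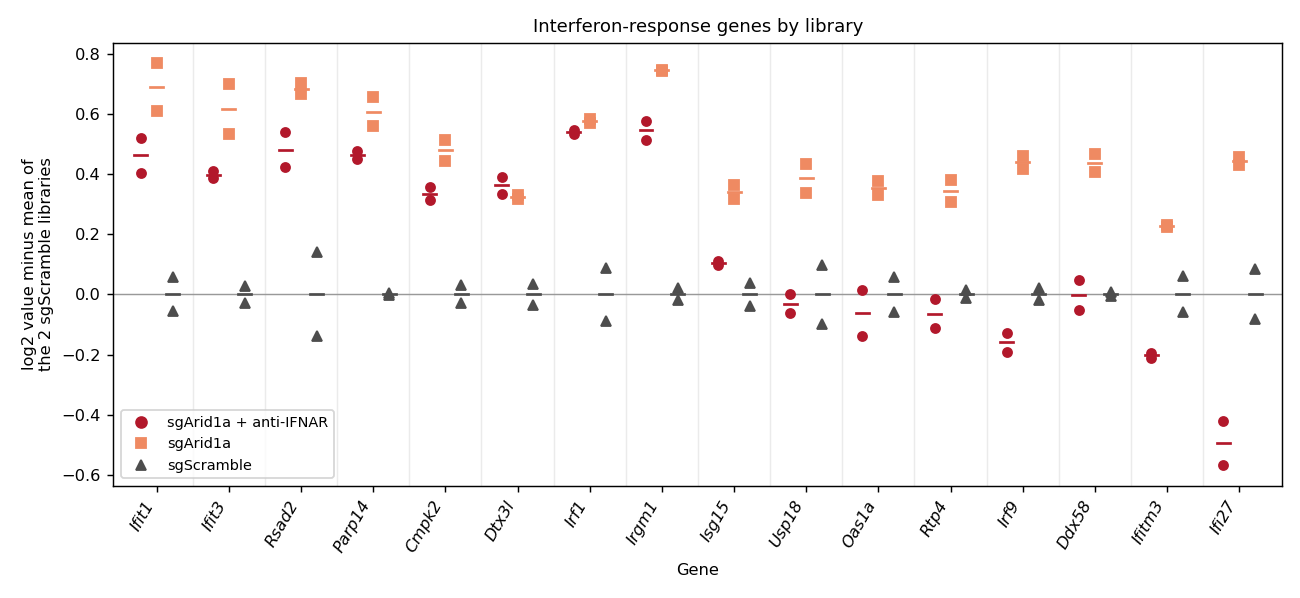
Log2 value of each library minus the mean of the 2 sgScramble libraries (vertical axis, log2) for 16 interferon-response genes (horizontal axis). Circles are sgArid1a with anti-IFNAR, squares untreated sgArid1a and triangles sgScramble, 2 libraries each, and dashes are group means. For Ifit1, Rsad2 and Parp14 the antibody libraries lie above sgScramble and below untreated sgArid1a, for Ddx58 and Usp18 they lie at the sgScramble level, and for Ifi27 below it.

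The authors' deposited table held its own tests of the same libraries over 24537 genes. With anti-IFNAR against sgScramble, the authors' deposited table had 668 genes higher (2.72%) and 771 lower (3.14%) at an adjusted p under 0.05, and of the 62 interferon-stimulated genes it had 10 higher and 1 lower (Ifi27). With anti-IFNAR against untreated sgArid1a, the authors' deposited table had 0 genes higher and 34 lower (0.139%), of which 15 were interferon-stimulated genes of the list, such as Rtp4, with a log2 fold change of -1.63, and Usp18, with -1.54. Among the other 19 of the authors' deposited table were Irf9, at -1.26, the interferon-inducible GTPase genes Igtp, at -1.21, and Irgm2, at -0.81, and B2m, at -0.35. The 19 lower ones in the authors' deposited table also held the ribosomal RNA precursor Rn45s, the structural RNAs Rmrp and Rpph1 and the ribosomal protein genes Rpl19, Rpl35 and Rpl41, named after their values were seen. Rn45s had log2 values of 15.90 and 15.80 with anti-IFNAR, 16.46 and 17.32 in untreated sgArid1a cells and 15.76 and 16.36 in sgScramble cells. Its antibody libraries lay below both untreated sgArid1a libraries, the way the interferon-stimulated genes did, and its part in their difference was not tested.

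Few signalling genes passed the test with anti-IFNAR, where 6.12% of all tested genes were higher and 6.61% lower. Of 22 tested interferon ligand, receptor and JAK-STAT genes (29 listed), 2 rose with anti-IFNAR: Irf1, a transcription factor of interferon and cytokine responses, by 0.54 ± 0.08 (adjusted p = 0.0021), and Socs3, a feedback inhibitor of cytokine receptors, by 0.37 ± 0.07. The Socs3 call was lost without either antibody library. In untreated sgArid1a cells 4 rose. The interferon genes Ifnb1, Ifna1, Ifna2, Ifna4 and Ifne were listed at 0 in all 6 libraries. Of 11 tested genes that lean towards interferon-gamma (29 listed), 2 rose with anti-IFNAR and 6 in untreated sgArid1a cells. The 2 were Irf1 and the GTPase gene Irgm1, which had 9.71 and 9.78 with anti-IFNAR, 9.95 and 9.94 in untreated sgArid1a cells and 9.18 and 9.22 in sgScramble cells, and rose by 0.54 ± 0.07 (adjusted p = 0.00089). Of the 11 genes 4 rose without sgScramble replicate 1.

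Among 23 tested MHC class I genes (25 listed), 7 rose and 2 fell with anti-IFNAR, against 11 and 1 in untreated sgArid1a cells. The peptide transporter genes Tap1 and Tap2 rose by 0.32 ± 0.07 (adjusted p = 0.015) and 0.39 ± 0.08, the loading factor gene Tapbp by 0.44 ± 0.11 and the immunoproteasome gene Psmb8 by 0.20 ± 0.05. The other 3 that rose were the trimming peptidase gene Erap1 and the ER chaperone genes Calr and Pdia3, which also stand in the ER list. The class I heavy chain gene H2-K1 had 10.61 and 10.39 with anti-IFNAR, 10.75 and 10.69 in untreated sgArid1a cells and 10.71 and 11.10 in sgScramble cells. It fell by 0.41 ± 0.12 (adjusted p = 0.049), although the antibody libraries lay only just below sgScramble replicate 1. H2-T24 fell by 0.13, and H2 genes are close copies whose reads may be shared. The count of 7 was 1 without antibody replicate 1 and 0 without antibody replicate 2. The H2-K1 call was lost without any library but sgScramble replicate 1 and with a replicate block, that for Psmb8 without any 1 of the 4 sgArid1a libraries, and those for Tap1, Tap2, Tapbp and Pdia3 without either antibody library. Erap1 lost its call without any library but sgScramble replicate 1 and H2-T24 without any but sgScramble replicate 2, and both with a replicate block. The light chain gene B2m was at -0.43 (adjusted p = 0.12) and passed without sgScramble replicate 2. The nucleic acid sensing list had 1 of 22 tested genes higher, Ifih1 (MDA5), against 8 in untreated sgArid1a cells. Over all tested genes 6.12% were higher with anti-IFNAR and 4.91% in untreated sgArid1a cells.

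The second table gave an independent set of libraries for the question of persistence. With DMSO, sgArid1a cells had 412 genes higher (3.5%) and 516 lower (4.38%) than sgScramble cells. Of the 405 higher ones tested in the anti-IFNAR table, 241 (59.5%) were higher in sgArid1a with anti-IFNAR than in sgScramble and 2 were lower, with a median of 0.28. Of the 501 lower ones tested there, 356 (71.1%) were lower and 0 higher, with a median of -0.37. In untreated sgArid1a cells, set against the same sgScramble libraries, 229 (56.5%) of the 405 were higher and 334 (66.7%) of the 501 lower. The share called in the same direction, 65.9% in all, was 30.0% without antibody replicate 1 and 24.8% without antibody replicate 2. Between antibody-treated and untreated sgArid1a cells, 2 of the 405 were called, both lower, and 0 of the 501.

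Ruxolitinib blocks the kinases below the receptor. With it, sgArid1a cells had 719 genes higher (6.1%) and 1109 lower (9.41%) than sgScramble cells with DMSO, or 1063 and 885 when the median of the tested genes was set equal in every library. Without ruxolitinib replicate 1 the total was 475, against 1828 with all libraries, and without replicate 2 it was 698. Without sgScramble DMSO replicate 1 it was 3751, without replicate 2 it was 3046, and without either sgArid1a DMSO library 1088. Over 11457 genes tested in both tables, 250 genes were higher under both treatments, which is 35.1% of the anti-IFNAR list and 35.3% of the ruxolitinib list. Lower under both were 416, which is 54.5% of the anti-IFNAR list and 38.2% of the ruxolitinib list. The 2 tables were normalized separately, and the difference between the antibody and ruxolitinib was not tested.

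The stress genes fell and chaperone genes mostly rose with ruxolitinib too, over other control libraries. Nupr1 had 6.74 and 6.76 with ruxolitinib, 6.84 and 6.71 in sgArid1a cells with DMSO and 9.21 and 9.32 in sgScramble cells with DMSO, a difference of -2.51 with ruxolitinib. All 16 tested integrated stress response genes fell with ruxolitinib, with a median of -0.97. Hspa5 had 14.54 and 14.62 with ruxolitinib, 14.42 and 14.46 in sgArid1a cells with DMSO and 13.72 and 13.91 in sgScramble cells with DMSO, and rose by 0.77. Of 22 tested ER chaperone genes 15 rose and 3 fell with ruxolitinib, with a median of 0.39. Cholesterol genes rose in 15 and fell in 1. Acat2 rose by 0.58 with ruxolitinib, and Insig1 was at 0.17 (adjusted p = 0.17).

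No interferon-stimulated gene was called higher by limma with ruxolitinib. Of 51 tested in the second table, 0 rose and 7 fell with ruxolitinib against sgScramble with DMSO (8 higher and 15 lower at an unadjusted p under 0.05), with a median of -0.05, while 25 rose and 0 fell in sgArid1a cells with DMSO, with a median of 0.22. Ifit1 had 8.13 and 8.06 with ruxolitinib, 8.75 and 8.61 in sgArid1a cells with DMSO and 8.12 and 8.40 in sgScramble cells with DMSO, a difference of -0.17 (adjusted p = 0.27) with ruxolitinib. Ifit3 fell by 0.34 (adjusted p = 0.0085), whereas Rsad2 was at 0.20 (adjusted p = 0.11) and Parp14 at 0.22 (adjusted p = 0.11). Ifi27 had 8.91 and 8.89 with ruxolitinib, 9.93 and 9.87 in sgArid1a cells with DMSO and 9.54 and 9.63 in sgScramble cells with DMSO. It fell by 0.69 with ruxolitinib, and Irf9 fell by 0.30. As with the antibody, the Ifi27 libraries with ruxolitinib lay below both other groups.

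**Figure D4:**
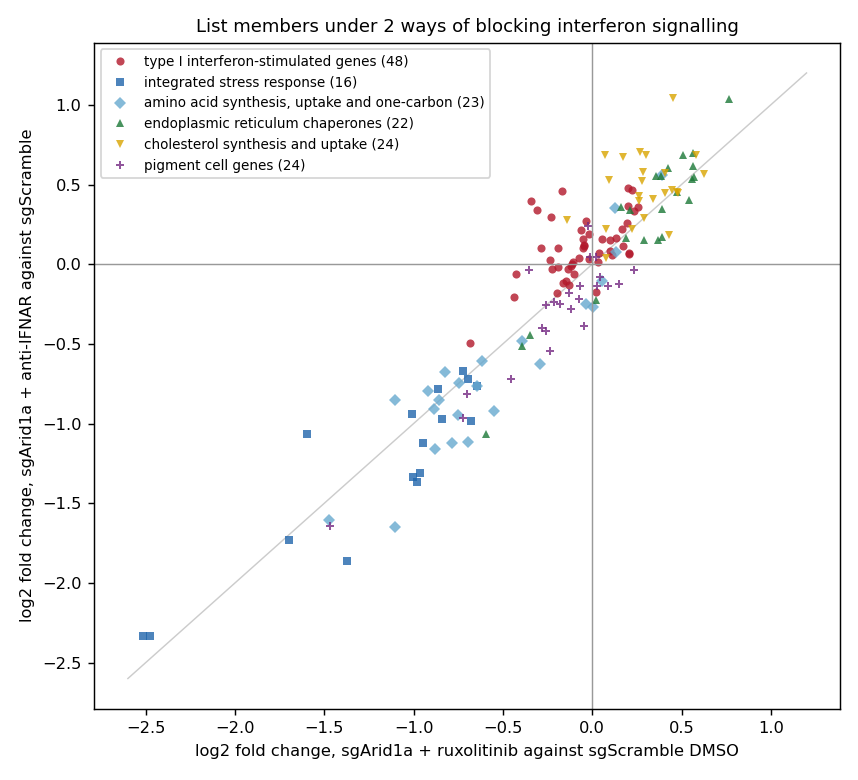
Log2 fold change of sgArid1a with anti-IFNAR against sgScramble (vertical axis) and of sgArid1a with ruxolitinib against sgScramble with DMSO (horizontal axis) for the members of 6 gene lists tested in both tables. Each point is a gene and the grey line marks equal values. Integrated stress response genes lie in the lower left, down to Nupr1 at -2.51 with ruxolitinib and -2.33 with anti-IFNAR, ER chaperone and cholesterol genes mostly in the upper right, and most interferon-stimulated genes near 0 on both axes.

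Other lists had few called members with anti-IFNAR, where 6.12% of all tested genes were higher and 6.61% lower. Some of these small counts lie near those shares, so none is read as a result about its list. Of 25 tested SWI/SNF subunit genes, Arid1a and Phf10 fell, Phf10, of the PBAF form of the complex, by 0.58 ± 0.07, and Bcl7a rose by 0.27. Of 33 R-loop and replication stress genes 2 rose, the RNA helicase genes Ddx5, by 0.31 ± 0.07, and Ddx21, by 0.26, and 0 of these were called without any 1 of the 4 sgArid1a libraries and 1 with no filter on low values. Of 21 tested p53 targets 3 fell (Sesn2, Gadd45a and Plk3) and 2 rose (Aen and Tigar), with a median of -0.01. Sesn2, which is also induced by Atf4, fell by 0.97 ± 0.09 and the growth arrest gene Gadd45a fell by 0.52 ± 0.07. The NF-kB list had 1 higher and 1 lower of 13 tested, Nfkbia, which encodes an inhibitor of NF-kB, and Tnfaip2. Immediate early genes had 3 lower of 16 tested (Jun, Fosl2 and Nr4a1), of which 0 were called without either antibody library and 7 of the list without sgScramble replicate 1. Checkpoint and NK ligand genes had 1 higher of 8 tested, Raet1d, a ligand of the NK receptor NKG2D. The Bcl7a, Nfkbia and Raet1d calls were lost without any 1 of the 4 sgArid1a libraries and with a replicate block. Cd274, which encodes PD-L1, was at 0.13 (adjusted p = 0.27), and the chemokine gene Cxcl10 at 0.13 (adjusted p = 0.32).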

How the data were processed

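RNA of polyA-selected libraries was measured by sequencing. The aligner STAR 2.5.3a and the build GRCm38/mm10 are named in the submitters' processing notes. Per the file headers, HOMER counted reads over genes and called edgeR for comparisons, and no strand option is given, so antisense and near-identical genes are uncertain. The authors deposited normalized log2 values per library, with low values drawn together, beside their own log2 fold changes, p-values and adjusted p-values.

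Here, limma 3.58.1 (with a trend of variance on mean) in R 4.3.3 was fitted to genes whose log2 values averaged 4 or more, on all 6 libraries of a table, with no pseudocount and no block. P-values were adjusted by the Benjamini-Hochberg method over all tested genes, and genes were called at an adjusted p under 0.05. The figure behind ± is the standard error (SE) of a log2 fold change. The design assumed counts or unlogged values as possible units, and the test is the one that log2 values need. The fit was tested on simulated data whose noise was independent between libraries. Such data could not show how the fit handles deviations shared over a library or a shallow library. Samples were grouped by GEO's labels. Gene lists and members were chosen with earlier results of these data known.

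Genes were named by a rule: Arid1a, the receptor genes, a panel of interferon-response genes, the 12 largest rises and 12 largest falls that averaged 6 or more in log2 value and did not overlap between groups, and, from each list, the 5 members with the smallest p. A few of the genes so picked are left out here. Genes named outside it (such as Mthfd1, Shmt1, Crebrf, Mmp14, Ndrg1, Erap1, H2-T24, Cmpk2, Ifi35, Slfn9, Ddx58, Oas1a) were chosen after their values were seen.

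Alternatives were other filters, scalings, variance models, library sets, a replicate block, a stricter threshold and leaving out each library.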

Additional observations from a re-analysis of the deposited data

Results flagged for a closer look

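In 2 interferon-pathway genes, antibody-treated and untreated sgArid1a cells differed by the direct test, so the value against sgScramble differed with and without the antibody. Ifi27 was lower with anti-IFNAR than in untreated sgArid1a cells by a log2 difference of -0.94 (limma adjusted p = 0.0046), with both antibody libraries below both untreated libraries. Its value against sgScramble was -0.49 with anti-IFNAR and 0.44 in untreated sgArid1a cells. Irf9 was lower by -0.60 (limma adjusted p = 0.023), again with both antibody libraries below both untreated ones. Its value against sgScramble was -0.16 with anti-IFNAR and 0.44 in untreated sgArid1a cells.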

How the results depend on the processing

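With 2 libraries per group, the counts of called genes depended on which libraries stood in the fit. Leaving out 1 library at a time gave 260 to 3829 genes for anti-IFNAR against sgScramble, 265 to 3587 for untreated sgArid1a against sgScramble, 0 to 18 for anti-IFNAR against untreated sgArid1a, 179 to 3240 for the DMSO cultures and 475 to 3751 for ruxolitinib. The share of DMSO genes called again lay between 24.8% and 77.4%. With only the 4 libraries of a comparison, the counts were 967, 683 and 18 in the anti-IFNAR table and 1086 for ruxolitinib. At an adjusted p under 0.01 they were 537, 446, 1, 333 for DMSO and 578 for ruxolitinib, with a share of 41.1%. With a replicate block the anti-IFNAR table gave 1067, 894 and 3, and the other table gave 1626 for ruxolitinib and 737 for DMSO. Under it, 14 of 113 named genes lost their call. In the anti-IFNAR table same-numbered libraries did not deviate together: the correlation of deviations was 0.018 between anti-IFNAR and sgScramble, -0.055 between anti-IFNAR and untreated sgArid1a and -0.413 between untreated sgArid1a and sgScramble. In the other table it was -0.172 between ruxolitinib and sgScramble DMSO, 0.305 between ruxolitinib and sgArid1a DMSO and -0.07 between both DMSO groups. A crossed pairing in the anti-IFNAR table, added after the data were seen, gave 2131, 1758 and 12. Over 113 named genes against sgScramble and 15 other settings, none changed sign while called, 204 of 1692 values lost a call and 4 gained one. Of the lost calls, 41 came without antibody replicate 1 and 48 without antibody replicate 2. The cause was not tested. Other filters, scalings and variance models kept the counts over all genes within 1.5 times. Of the gene list counts, they moved 2 by more: with no filter on low values, mitosis genes higher were 1 and not 4, and R-loop genes higher 1 and not 2. Depth limits low genes, whose log2 values are drawn together.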

Other observations

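Some transcripts that carry or overlap ribosomal RNA sequence differed between libraries, and they are given as values chosen after they were seen. Rn45s, the ribosomal RNA precursor, had log2 values of 15.90 and 15.80 with anti-IFNAR, 16.46 and 17.32 in untreated sgArid1a cells and 15.76 and 16.36 in sgScramble cells. Lars2 had 12.60 and 12.29 with anti-IFNAR, 13.34 and 14.04 in untreated sgArid1a cells and 12.56 and 13.23 in sgScramble cells. Mir6236 had 7.66 and 7.60 with anti-IFNAR, 8.54 and 8.62 in untreated sgArid1a cells and 8.64 and 8.19 in sgScramble cells, and was lower with anti-IFNAR than in sgScramble cells by -0.78 (limma adjusted p = 0.0031). All 3 were lower with anti-IFNAR than in untreated sgArid1a cells in the authors' deposited table. Their part in the other results was not tested.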
